A study of Mus musculus with 24 samples.

Results

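The 9 genes described here were grouped as activity-regulated effectors of synaptic plasticity, with relatives of the same families: Arc, Npas4, Homer1, the neuronal pentraxins Nptx1 and Nptx2 with their receptor Nptxr, and the Polo-like kinases Plk2, Plk3 and Plk5. They were chosen with earlier results of these data known and taken by symbol. They make up 9 of the 53379 genes in the count table and 9 of the 37598 genes that were tested. Neurons of the hippocampus switch on a set of activity-regulated genes within minutes to hours of strong activity. Some products remove AMPA-type glutamate receptors from the synapse, others anchor or cluster them, and others are transcription factors that start a further wave of genes. Seizures are among the strongest known stimuli for the induced genes of this kind in the dentate gyrus and the CA fields.

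The data were mRNAseq counts from nuclei of the right hippocampus of adult male C57/BL6N mice, acquired at 8 weeks of age and acclimatized for 4 weeks. KA mice had received 70 nl of 20 mM kainic acid, a glutamate receptor agonist that triggers status epilepticus, into the cortex next to the hippocampus, and KA animals without convulsive seizures had been excluded. SH (sham) mice had received 0.9% NaCl instead, and the tissue of both was taken at 24 hours. Each treatment had 8 mice in 3 pools, of 4 mice for replicate 1 and 2 mice each for replicates 2 and 3, and each pool was sorted by flow cytometry into NeuN+ nuclei (neurons) and NeuN- nuclei (glia), which gave 4 groups of 3 libraries. NeuN- nuclei include every cell type without NeuN, so the name glia covers vascular and immune cells and any neuron that lacks or has lost the protein. SH glia replicate 1 and KA glia replicate 2 were made from about 0.05 ng of RNA with 15 PCR cycles, and the others from 1 ng with 10.

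Total counts ranged from 7769400 to 40364768 per library. The libraries of replicate 3 held counts for fewer genes than the others of their group, between 36165 and 42160 genes. The summed level of 15 neuronal marker genes, NeuN's own gene Rbfox3 among them, was 7485 to 11950 CPM (counts-per-million, the usual scaling of counts to library size, here with TMM factors) in SH neurons and 7951 to 9877 in KA neurons. The sum was 837 to 2612 CPM in SH glia and 685 to 2380 in KA glia, with none of the 15 markers at 0 in any library, so neuronal transcripts were present in every glial library. The summed level of 8 oligodendrocytic markers was 14280 to 29770 CPM in SH glia and 7488 to 14030 CPM in KA glia, against 327 to 1280 CPM in SH neurons and 145 to 703 CPM in KA neurons.

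In KA neurons, Arc, Npas4 and Nptx2 were upregulated and Plk5 was downregulated, while the other 5 genes did not pass the threshold, a false discovery rate (FDR) below 0.25. In KA glia, Npas4 and Nptx2 were upregulated and Plk5 was downregulated. Beside these 3 of 9 genes up and 1 of 9 down in neurons, 0.279% of all tested genes were up and 0.0612% down in neurons. In glia, where 2 of 9 were up and 1 of 9 down, the shares of all tested genes were 0.442% up and 0.306% down. KA and SH pools of the same replicate number came from different mice, and the authors did not describe them as paired. Their libraries deviated together, although in glia the numbers 1 and 2 each set a library of 0.05 ng against one of 1 ng. Libraries of unlike number were not compared. With the replicate number as a block, Homer1 and Plk2 were also upregulated in neurons, 5 genes in all, and Arc in glia, 3 in all. That model called 1.94% of all tested genes up and 1.11% down in neurons, and 3.47% up and 4.17% down in glia. The median log2 fold change (logFC) of KA against SH over the 9 genes was 0.88 in neurons, against 0.000475 over all tested genes, and 0.43 in glia, against 0.14. Because the 9 genes were chosen with earlier results of these data known, these contrasts with all genes are descriptions and not tests. In bulk libraries such as these, fewer cells of a type and less RNA per cell cannot be told apart.

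**Figure D1:**
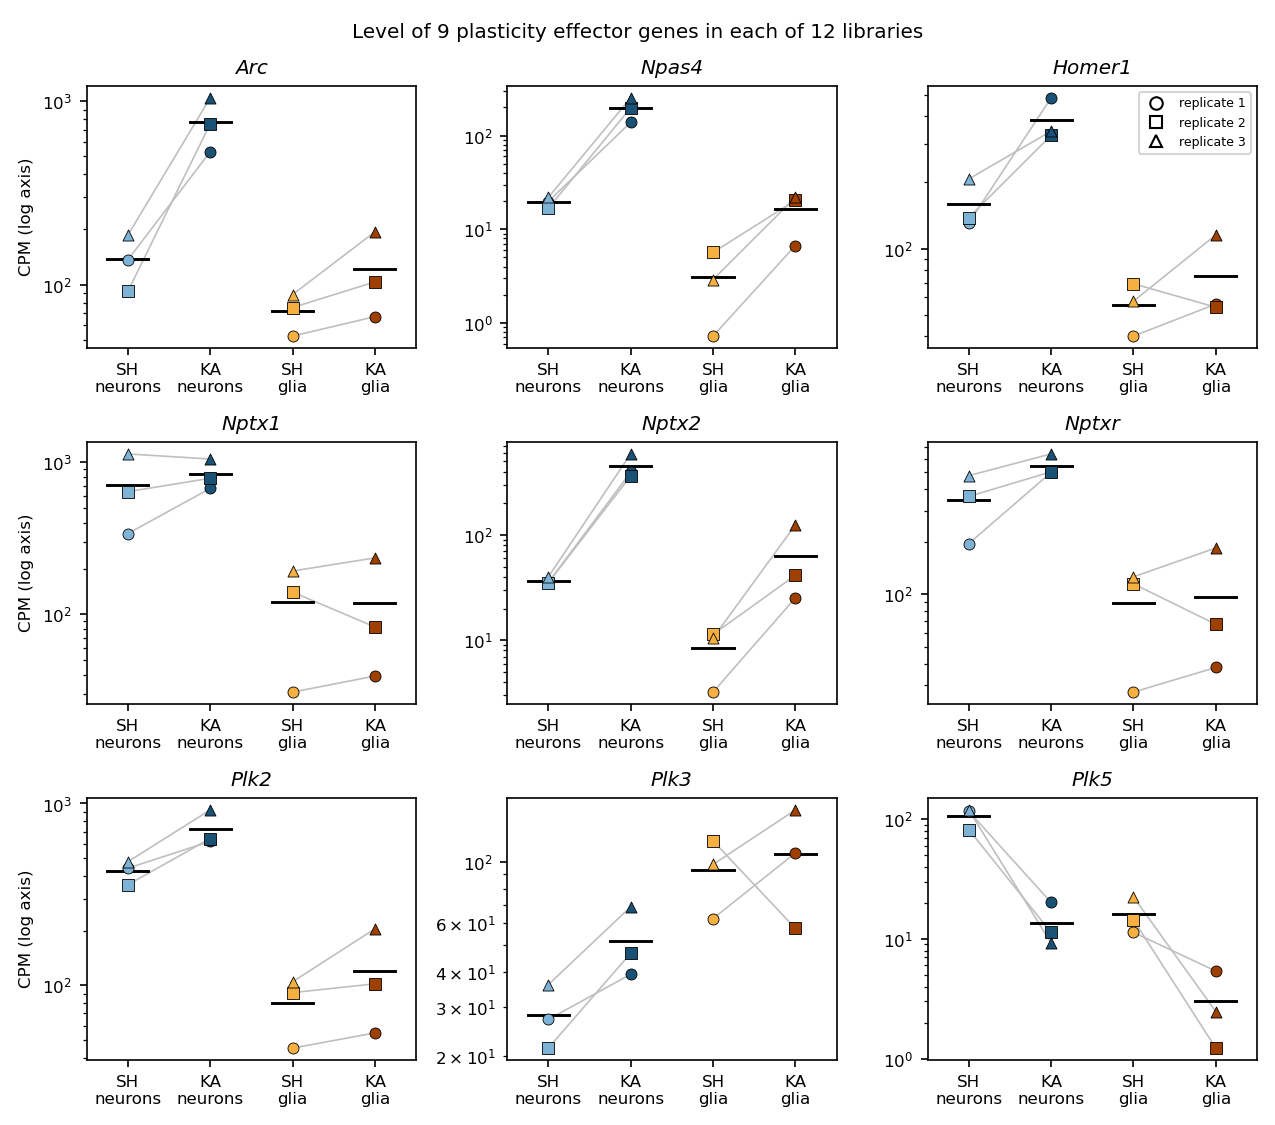
CPM of each of the 9 genes (log axis) in the 12 libraries, by group, with the replicate number as the symbol, same-numbered SH and KA libraries joined by grey lines and the group mean as a black bar. All KA neuron libraries lie above all SH neuron libraries for 7 genes and below them for Plk5, and Nptx1 overlaps.

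In neurons, separation of single libraries gave a wider set than the test: the 3 KA libraries were all higher than the 3 SH libraries for 7 of the 9 genes, as they were for 5.27% of all tested genes, and all lower for Plk5, as for 4.45% of all tested genes. In glia, they were all higher for Npas4 and Nptx2 (3.61% of all tested genes) and all lower for Plk5 (3% of all tested genes), and the other 6 genes overlapped.

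Arc (ENSMUSG00000022602, mm10 chromosome 15 from 74669083 to 74672570) is an immediate early gene whose protein drives endocytosis of AMPA receptors and whose mRNA travels into active dendrites. In SH neurons Arc was at 137, 91.9 and 186 CPM in replicates 1, 2 and 3, and in KA neurons at 530.0, 753 and 1042 CPM. The lowest KA neuron library was thus above the highest SH neuron library, and KA exceeded SH by 3.88, 8.19 and 5.59 times in the replicate numbers 1, 2 and 3. The logFC in neurons was 2.49 (standard error 0.48, FDR 0.0742). Its FDR was 0.537 without SH neurons replicate 1, 0.373 without SH neurons replicate 2 and 0.473 without KA neurons replicate 3, with a logFC between 2.21 and 2.76 over the fits without 1 neuron library. In glia Arc was at 52.5, 75.1 and 88.4 CPM in SH and at 67.0, 104 and 194 CPM in KA, so that the groups overlapped. The logFC in glia was 0.76 (standard error 0.45, FDR 1.00), 0.65 with the replicate block (FDR 0.238) and 0.92 with library-size scaling (FDR 0.226).

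Arc was also the gene with the smallest p for a difference of the KA effect between cell types among the 9. The effect in neurons exceeded that in glia by 1.73 on the log2 scale (standard error 0.64, unadjusted p = 0.0157, FDR 1), in a comparison where edgeR called 0 of all tested genes (0%) and 502 had an unadjusted p below 0.05. With the pool of mice as a block, since neurons and glia came from the same animals, the difference was 1.84 (FDR 0.0845), and 0.471% of all tested genes were called. The differences of the other 8 genes lay between -0.52 (Plk5) and 0.95 (Npas4) and were not called in either model.

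Npas4 (ENSMUSG00000045903, chromosome 19 from 4984355 to 4990316) encodes an activity-dependent transcription factor that is found mainly in neurons and adjusts the balance of excitatory and inhibitory input. It was at 19.7, 16.7 and 21.8 CPM in SH neurons and reached 138, 197 and 252 CPM in KA neurons. Every KA neuron library was far above every SH neuron library, by 7.0, 11.8 and 11.5 times within replicate numbers. The logFC in neurons was 3.33 (standard error 0.57, FDR 0.0455). It lost the call without SH neurons replicate 1 (FDR 0.342) or replicate 2 (FDR 0.260) and without all libraries of replicate 3 (logFC 3.20, FDR 0.645).

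In SH glia Npas4 was at 0.7235, 5.65 and 2.90 CPM, from 9, 116 and 97 counts, and in KA glia at 6.69, 20.3 and 21.9 CPM, from 77, 531 and 531 counts. All KA glia libraries were higher than all SH glia libraries, although KA replicate 1 was close to SH replicate 2. The logFC in glia was 2.38 (standard error 0.56, FDR 0.136). This call was lost without SH glia replicate 3 (FDR 0.541), KA glia replicate 2 (FDR 0.581) or KA glia replicate 3 (FDR 0.292) and with separate fits per cell type (FDR 0.549), and without both low-input libraries the logFC was 1.76 (FDR 1). The paper, which also fitted each cell type separately, lists Npas4 as upregulated in glia at the same FDR threshold. The separate fit here thus differed from the paper for this gene, and the cause was not tested.

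The 250 bases upstream of the RefSeq start site of Npas4 are shown because this gene had the largest logFC in neurons among the members with a promoter sequence at hand. They are from RefSeq (GRCm38.p6, chr19:4989972-4990221, minus strand, written 5′ to 3′ along the gene), with matches to TGACG, the core of the cAMP response element (CRE) to which the activity-regulated factor CREB binds, in capitals on either strand.
Npas4: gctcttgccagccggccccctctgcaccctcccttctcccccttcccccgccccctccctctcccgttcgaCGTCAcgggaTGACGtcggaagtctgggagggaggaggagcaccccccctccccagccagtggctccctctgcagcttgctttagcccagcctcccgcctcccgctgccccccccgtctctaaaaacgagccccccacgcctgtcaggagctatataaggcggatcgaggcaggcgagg
The window held the core on both strands, with first bases at -179 and -169 from the RefSeq start site. It lies within the gene span given above, downstream of the 5′ end of that span. Of 32851 RefSeq promoter windows of the same length, 17.8% held at least 1 such core on either strand.

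Homer1 (ENSMUSG00000007617, chromosome 13 from 93299635 to 93405129) encodes a scaffold that ties metabotropic glutamate receptors to the postsynaptic density, and its short activity-induced form loosens that tie. The gene has 12 annotated transcripts, and counts per gene do not separate the short from the long forms. In neurons Homer1 was at 131, 138 and 207 CPM in SH and at 484, 327 and 342 CPM in KA. The groups did not overlap, and KA exceeded SH by 3.70, 2.36 and 1.65 times within replicate numbers. The logFC in neurons was 1.28 (standard error 0.40, FDR 0.641), and 1.28 with the replicate block (FDR 0.0235). It was also called with separate fits per cell type (FDR 0.0672), library-size scaling (FDR 0.0601), at least 10 counts in every library (FDR 0.0715) and DESeq2 (FDR 0.109). The fit without KA glia replicate 3 called it too (FDR 0.222). Of 24 alternatives, 18 left Homer1 in neurons uncalled, among them each of the 6 fits without 1 neuron library (FDR 0.951 or above). The paper analysed each cell type separately and lists Homer1 among the genes upregulated in neurons at the same FDR threshold. In glia Homer1 was at 40.0, 69.1 and 57.6 CPM in SH and at 55.9, 54.1 and 115 CPM in KA, which overlapped (logFC 0.43, standard error 0.40, FDR 1.00).

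The neuronal pentraxins are secreted or membrane-bound lectin-like proteins that gather AMPA receptors at synapses, and Nptx2, also called Narp, is the activity-induced member. Nptx2 (ENSMUSG00000059991, chromosome 5 from 144545902 to 144557478) was at 35.3, 35.1 and 39.8 CPM in SH neurons and at 394, 364 and 588 CPM in KA neurons. SH neurons were close to each other and KA neurons stood 11.1, 10.4 and 14.8 times higher within replicate numbers. This was the largest logFC of the 9 genes in neurons, at 3.61 (standard error 0.59, FDR 0.0369), with an FDR of 0.315 without SH neurons replicate 1. In glia Nptx2 was at 3.22, 11.3 and 10.5 CPM in SH and at 25.2, 41.3 and 124 CPM in KA. All KA glia libraries were higher, by 7.84, 3.64 and 11.8 times within replicate numbers. The logFC in glia was 2.92 (standard error 0.57, FDR 0.0548), and each of the 6 fits without 1 glia library kept the call, while the FDR was 0.482 without both low-input libraries and 0.519 without all libraries of replicate 3.

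Nptx1 (ENSMUSG00000025582, chromosome 11 from 119538719 to 119547753), a pentraxin made by neurons without stimulation, did not pass the threshold in either cell type. In neurons it was at 339.9, 641 and 1135 CPM in SH and at 673, 785 and 1051 CPM in KA. Here the spread among SH libraries was wider than the distance between the group means of 706 and 836 CPM (logFC 0.25, standard error 0.67, FDR 1). In glia it was at 30.9, 140.3 and 193 CPM in SH and at 39.4, 82.7 and 235 CPM in KA, with a logFC of -0.03 (standard error 0.67, FDR 1.00) whose sign turned with library-size scaling.

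Nptxr (ENSMUSG00000022421, chromosome 15 from 79786351 to 79804766), the membrane-anchored pentraxin that holds the complex at the cell surface, followed Nptx1 most closely among the 9 genes. In neurons it was at 195, 364 and 479 CPM in SH and at 499.8, 504 and 638 CPM in KA. The lowest KA library lay just above the highest SH library, and the logFC of 0.66 (standard error 0.59, FDR 1) did not pass the threshold. In glia it was at 27.5, 115 and 126 CPM in SH and at 38.1, 67.3 and 184 CPM in KA, which overlapped (logFC 0.11, standard error 0.59, FDR 1.00). Exons of Npcd on the same strand share 17.2% of the exon bases of Nptxr, where default counting leaves reads out, and Npcd itself had 0 counts in every library.

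**Figure D2:**
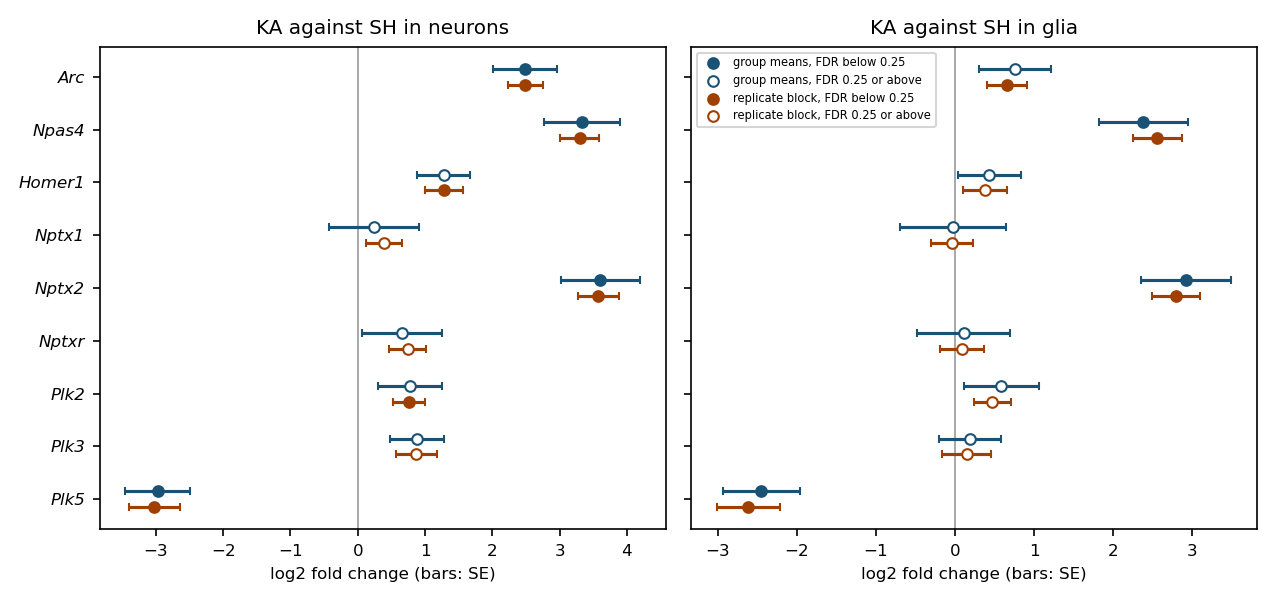
log2 fold change of KA against SH for the 9 genes in neurons (left) and glia (right), with standard errors, from the model of group means (blue) and with the replicate block (brown), filled where the FDR was below 0.25. Npas4 and Nptx2 lie above 2 and Plk5 below -2 in both cell types, whereas Arc lies at 2.49 in neurons and 0.76 in glia.

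The Polo-like kinases are named after a cell cycle kinase, but several act in postmitotic neurons. PLK2 is induced by activity and lowers synaptic strength by phosphorylating the spine protein SPAR (Sipa1l1) and regulators of Ras and Rap. Plk2 (ENSMUSG00000021701, chromosome 13 from 110395046 to 110400844) was at 440.35, 357 and 478 CPM in SH neurons and at 618, 641 and 922 CPM in KA neurons. The groups did not overlap, by a smaller factor than for Arc, Npas4 or Nptx2, namely 1.4, 1.80 and 1.93 within replicate numbers. The logFC in neurons was 0.77 (standard error 0.48, FDR 1), and 0.76 with the replicate block (FDR 0.165). In glia Plk2 was at 45.1, 91.0 and 104 CPM in SH and at 54.7, 102 and 204 CPM in KA, which overlapped (logFC 0.58, standard error 0.48, FDR 1.00).

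Plk3 (ENSMUSG00000028680, chromosome 4 from 117128655 to 117133963), a kinase of the cellular stress response, was the only member with a higher mean in glia than in neurons. In neurons it was at 27.0, 21.3 and 36.0 CPM in SH and at 39.3, 46.8 and 68.8 CPM in KA. All KA neuron libraries were higher, but the logFC of 0.88 (standard error 0.40, FDR 1) did not pass the threshold, with or without the replicate block (FDR 0.272 with it). In glia it was at 62.4, 119 and 97.8 CPM in SH and at 108, 57.5 and 154 CPM in KA, which overlapped (logFC 0.19, standard error 0.39, FDR 1.00). On the opposite strand Tctex1d4 shares 3.32% of the exon bases of Plk3, and it was at 1.48 CPM or less.

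Plk5 (ENSMUSG00000035486, chromosome 10 from 80356459 to 80365489) encodes a Polo-like protein without an intact kinase domain that is expressed in the brain. It was at 117, 82.0 and 119.6 CPM in SH neurons and at 20.2, 11.3 and 9.24 CPM in KA neurons. All KA neuron libraries were lower than all SH neuron libraries, by 5.78, 7.25 and 13.0 times within replicate numbers. The logFC in neurons was -2.97 (standard error 0.48, FDR 0.0369), with an FDR of 0.344 without KA neurons replicate 3 and 0.569 without all libraries of replicate 3.

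In glia Plk5 was at 11.3, 14.4 and 22.4 CPM in SH and at 5.39, 1.22 and 2.47 CPM in KA. All KA glia libraries were lower again, by 2.10, 11.8 and 9.06 times within replicate numbers. The logFC in glia was -2.45 (standard error 0.49, FDR 0.0600). The call was lost without KA glia replicate 2, a low-input library (FDR 0.326), without both low-input libraries (logFC -2.49, FDR 0.331), with separate fits per cell type (FDR 0.465) and without all libraries of replicate 3 (FDR 0.666). The separate fit here differed from the paper, which lists Plk5 as downregulated in glia from its own separate analysis. The cause of this difference was not tested. Beside the fall of Plk5, the summed level of 6 dentate granule cell markers was 627 to 835 CPM in SH neurons and 507 to 688 CPM in KA neurons, with 1 of the 6 (Calb1) called down and none at 0, and with 3 down and 1 up with the replicate block. The summed level of 5 CA1 pyramidal markers was 365 to 476 CPM in SH neurons and 332 to 357 CPM in KA neurons, with none of the 5 called and none at 0. For 5 CA3 pyramidal markers the sum was 198 to 276 CPM in SH neurons and 212 to 293 CPM in KA neurons. For 9 interneuron markers it was 693 to 1070 CPM and 684 to 774 CPM, and none of the CA3 or interneuron markers was called in neurons. The part of these marker levels in the values of the 9 genes was not tested.

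The upstream windows of Plk2 and Plk5 are shown because these related kinases moved in opposite directions in neurons, Plk2 upwards in the model with the replicate block and Plk5 downwards in both models. Capitals mark matches to the CRE palindrome TGACGTCA or its core TGACG on either strand, in RefSeq sequence of GRCm38.p6 written 5′ to 3′ along the gene, chr13:110394794-110395043 (plus strand) for Plk2 and chr10:80356209-80356458 (plus strand) for Plk5.
Plk2: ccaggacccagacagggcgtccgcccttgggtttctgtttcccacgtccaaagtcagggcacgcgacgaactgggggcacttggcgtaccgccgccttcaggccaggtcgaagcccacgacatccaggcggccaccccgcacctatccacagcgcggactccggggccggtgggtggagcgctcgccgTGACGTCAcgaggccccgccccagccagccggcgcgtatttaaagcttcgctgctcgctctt
Plk5: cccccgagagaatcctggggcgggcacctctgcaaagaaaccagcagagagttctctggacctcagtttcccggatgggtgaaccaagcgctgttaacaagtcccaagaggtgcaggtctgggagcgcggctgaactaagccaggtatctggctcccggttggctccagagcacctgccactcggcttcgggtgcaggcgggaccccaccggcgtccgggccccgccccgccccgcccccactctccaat
Plk2 held the whole palindrome with its first base at -62, which overlaps both matches to the core, and 1.55% of all promoter windows of this length held the palindrome. The Plk5 window had no match to these letters. Of the other windows for the 9 genes, that of Plk3 held the core with first bases at -132 and -63, the first of 2 Homer1 windows held it at -56, -40 and -14, and the second Homer1 window held none. The Homer1 windows lie within the gene span given for Homer1, and their positions are relative to RefSeq start sites. The E-box CACGTG (6.02% of all windows), the AP-1 site TGANTCA (6.75%) and the CArG box (1.47%) were in none of the 6 windows. RefSeq windows matched 5 of the 9 genes by symbol, and a match in these letters is a description of the sequence and not a measured binding site.

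Levels of different genes were compared per kilobase (kb) of merged exons. Merged exons join all annotated transcripts of a gene, for Homer1 12 transcripts over 11.976 kb. Short forms cover less than this length, so the place of Homer1 in the orders depends on it. For Nptxr, the 17.2% of bases shared with Npcd stayed in the length. In SH neurons the order of mean levels was Nptx1 (135 ± 77.0 CPM per kb, SD, n = 3), Plk2 (94.7 ± 13.7), Nptxr (66.9 ± 27.6), Arc (45.2 ± 15.4), Plk5 (39.6 ± 7.81), Nptx2 (14.5 ± 1.05), Homer1 (13.2 ± 3.52), Plk3 (11.1 ± 2.94) and Npas4 (4.70 ± 0.626). Ranges of neighbours in this order overlapped except between Plk5 and Nptx2 and between Plk3 and Npas4. In KA neurons Arc (253 ± 83.9 CPM per kb) and Nptx2 (177 ± 48.0) had the highest means, ahead of Plk2 (162 ± 37.6) and Nptx1 (160.3 ± 37.2), and these 4 overlapped from neighbour to neighbour. They were followed by Nptxr (106 ± 15.2), Npas4 (47.3 ± 13.8), Homer1 (32.1 ± 7.26), Plk3 (20.4 ± 6.06) and Plk5 (5.07 ± 2.17), where only Npas4 and Homer1 overlapped as neighbours. Npas4 thus moved from the last to the sixth place, and Plk5 from the fifth to the last.

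In glia Plk3 had the highest mean level per kb in both treatments, at 36.8 ± 11.3 CPM per kb in SH and 42.0 ± 19 in KA. Arc came next at 23.6 ± 5.94 CPM per kb in SH glia and 39.8 ± 21.4 in KA glia. The lowest level was that of Npas4 in SH glia (0.747 ± 0.597 CPM per kb) and that of Plk5 in KA glia (1.13 ± 0.798). Every pair of neighbours in the glial orders overlapped.

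**Figure D3:**
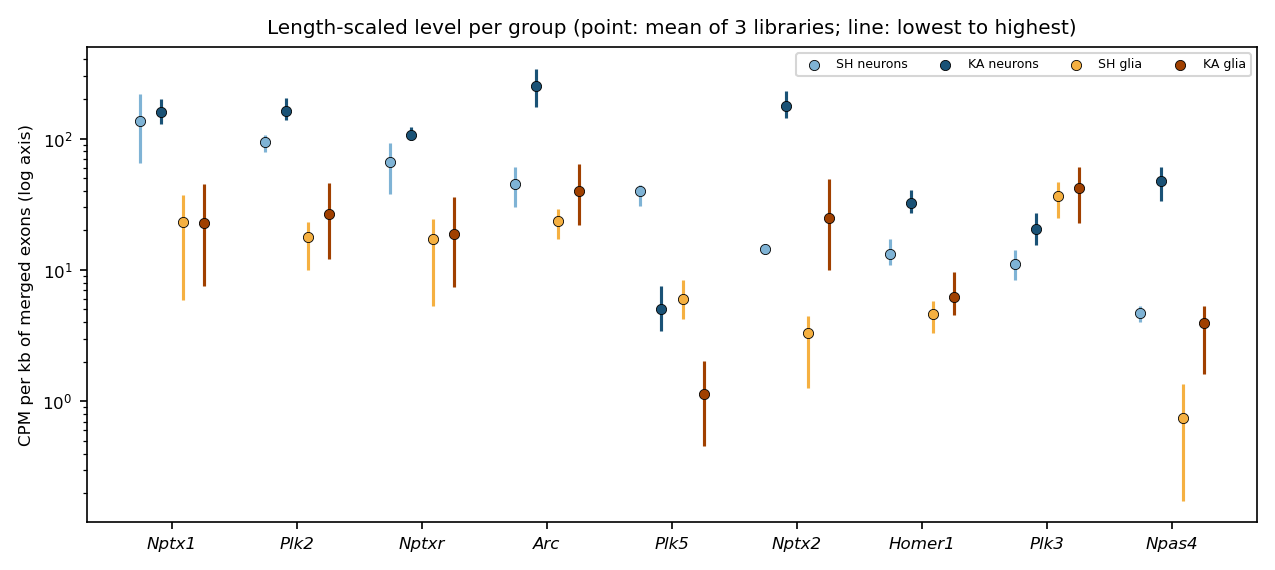
CPM per kb of merged exons (log axis) for the 9 genes, ordered by their mean in SH neurons, as the mean (point) and range (line) of 3 libraries in each group. Arc and Nptx2 rise to the top in KA neurons, at 253 and 177 CPM per kb, and Plk5 falls to 5.07.

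Neurons and glia of the same treatment were compared next. In SH, 7 of the 9 genes were higher in neurons, where 12.3% of all tested genes were, and Plk3 was lower, where 7.57% of all tested genes were. The largest of these differences was that of Plk5, with a logFC of neurons against glia of 2.72 (standard error 0.48, FDR 0.00138), and Plk3 had -1.73 (standard error 0.41, FDR 0.00982). Arc in SH was at 0.94 (standard error 0.46, FDR 0.267), and 0.92 with the pool as a block (FDR 0.0170). Without both low-input libraries, 3 of the 9 genes were higher in SH neurons. In KA, 8 of the 9 genes were higher in neurons, where 11.2% of all tested genes were, led by Npas4 with 3.58 (standard error 0.58, FDR 0.00101). Plk3 in KA was lower in neurons at -1.04 (standard error 0.40, FDR 0.136), where 6.62% of all tested genes were lower, although its libraries of the 2 cell types overlapped.

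Since each pool gave a neuronal and a glial library, the level in glia was also expressed as a percentage of the level in neurons of the same mice. For the 15 neuronal markers, the median percentage was 17.1, 31.3 and 25.1% in SH pools 1, 2 and 3 and 11.0, 17.2 and 25.5% in KA pools, while single markers ranged from 2.60 to 144%. The percentage of Arc was 38.4, 81.7 and 47.5% in SH pools, above the marker median in each, and 12.6, 13.8 and 18.6% in KA pools. The SH and KA percentages of Arc did not overlap, with means of 55.9% and 15.0% and p = 0.1 in an exact two-sided permutation test, the smallest p that 3 pools against 3 allow. Npas4 was at 3.67, 33.8 and 13.3% in SH pools and at 4.85, 10.3 and 8.68% in KA pools, below the marker median in each KA pool. Plk3 was higher in glia than in neurons in every pool, from 123 to 559%. Nptx2 was at 9.1, 32.3 and 26.3% in SH pools, above the marker median in 2 of 3. In KA pools Nptx2 was at 6.4, 11.4 and 21.1%, below the marker median in each. For Nptx1, Nptxr and Plk2 the percentage lay between 5.85 and 31.6% in the 6 pools, and for Homer1 between 11.5 and 50.0%.

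Plk5 was at 9.72, 17.6 and 18.7% in SH pools, below the marker median in each, and at 26.7, 10.8 and 26.8% in KA pools, above it in 2 of 3. For the members other than Arc the exact permutation p of KA against SH was between 0.3 and 0.8. Because neuronal markers were present in every glial library, the glial levels of Npas4, Nptx2 and Plk5 stand beside these percentages, and how much of them came from neuronal transcripts was not tested. Over the same neuronal list, none of the 15 genes was called in either direction in glia, and the median logFC of the list was -0.45, while the replicate block called 2 of them down.

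Glial markers also moved with the treatment in the glial libraries in which Npas4, Nptx2 and Plk5 were called. The summed levels of the 8 oligodendrocytic markers, given above, and of 5 oligodendrocyte precursor markers (1757 to 2868 CPM in SH glia and 784 to 1564 CPM in KA glia) were lower in every KA glia library than in every SH glia library. None of the 8 and 1 of the 5 (Cspg4) was called down, and 5 and 4 with the replicate block. The sums of 10 astrocytic markers (1969 to 2792 CPM in SH glia and 1189 to 2261 CPM in KA glia) and of 10 microglial markers (1119 to 2540 CPM and 831 to 1672 CPM) overlapped. Of the astrocytic markers, 1 (Aldoc) was called down, and 6 down and 1 up with the block, and of the microglial markers 2 (P2ry12 and Siglech) were called down, and 3 with the block. None of these markers was at 0 in any library, and their part in the glial values of the 9 genes was not tested.

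**Figure D4:**
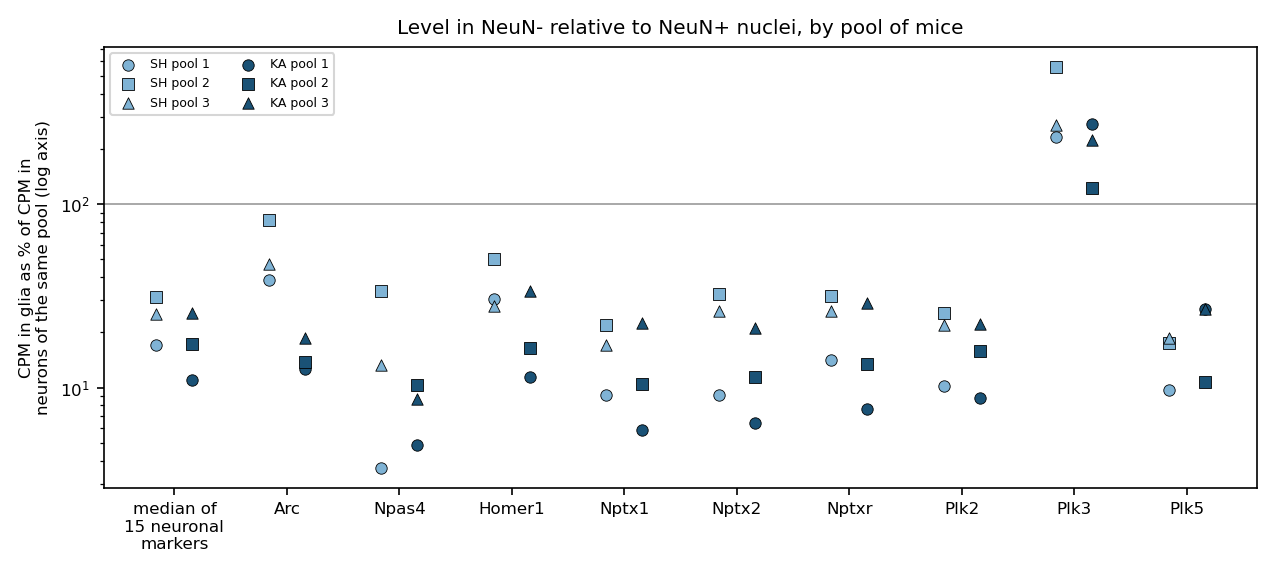
CPM in glia as a percentage of CPM in neurons of the same pool (log axis) for the median of 15 neuronal markers and each of the 9 genes, in the 3 SH and 3 KA pools. Arc lies between 38.4 and 81.7% in SH and between 12.6 and 18.6% in KA, and Plk3, from 123 to 559%, lies above the grey line of equal levels throughout.

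Across all 12 libraries, the genes whose centred log2 CPM was nearest to each member were sought among 17258 protein-coding genes, as the smallest root mean square (RMS) difference. Npas4 and Nptx2 had the same nearest gene, Ptgs2, the inducible cyclooxygenase (RMS difference 0.465 and 0.45 log2 units), and were among the 3 nearest genes of each other at 0.528. Nearest to Arc were Rgs4 (0.334), Sstr2 (0.36) and Sorcs3 (0.365). Plk5 had more distant neighbours, namely Mc4r (0.637), Gpr12 (0.683) and Echdc2 (0.803). Nptx1 was near to Nrg3 (0.198) and Plch2 (0.209). Nptxr was nearest to Hectd2, Dlgap3 and Grasp (0.215 to 0.227), Plk2 to Arpp21, Col5a1 and Rapgef4 (0.204 to 0.216), Plk3 to Errfi1, Sulf2 and Filip1l (0.226 to 0.248) and Homer1 to Pde2a, Frmd6 and March11 (0.321 to 0.361). Among the members themselves, Nptx1 and Nptxr were the closest pair at 0.322.

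The genes of the surrounding pathways were taken from lists written with earlier results of these data known. Their counts and medians are descriptions and not tests. Of all tested genes, 0.279% were up and 0.0612% down in neurons, and 0.442% up and 0.306% down in glia. With the replicate block, 1.94% were up and 1.11% down in neurons, and 3.47% up and 4.17% down in glia. Of 9 partners of Arc in endocytosis and signalling, none was called in neurons or glia, and the median logFC was -0.37 in neurons and -0.21 in glia. The smallest p was that of Sh3gl3, an endophilin, with 61.8 ± 17.5 CPM in SH glia and 29.2 ± 4.28 CPM in KA glia (logFC -1.08, FDR 0.332). With the replicate block, Sh3gl3, Dnm1 and Camk2b were called down in glia. Of 12 partners of Homer1, none was called in either cell type, with medians of 0.10 and 0.07. The smallest p was that of Itpr1, the intracellular calcium release channel, with 212 ± 48.8 CPM in SH neurons and 125 ± 18.3 CPM in KA neurons (logFC -0.76, FDR 1), and with the replicate block Itpr1 was down and the scaffold genes Shank1 and Dlgap4 were up in neurons.

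Of 8 partners and relatives of the pentraxins, including the 4 AMPA receptor subunit genes, none was called in neurons and 1 was up in glia. This was Ptx3, the long pentraxin of the innate immune system, at 6.04 ± 6.96 CPM in SH glia and 57.2 ± 29.0 CPM in KA glia (logFC 3.27, FDR 0.132), and with the replicate block it was up in neurons too. With that block Gria2, Gria3 and Gria4 were down in glia, where the median logFC of the list was -0.64. Of 7 other Polo-like kinases and PLK2 substrates, none was called in either cell type or model. The smallest p in that list was that of Rapgef2, a Rap activator, with 208 ± 64.7 CPM in SH neurons and 111 ± 7.94 CPM in KA neurons (logFC -0.90, FDR 1).

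Of 7 partners and targets of NPAS4, 2 were up in neurons and 1 in glia. Nr4a1, a nuclear receptor gene of the immediate early class, rose from 53.1 ± 19.8 to 167 ± 20.1 CPM in neurons (logFC 1.66, FDR 0.145), and Csrnp1, a nuclear protein gene, from 12.7 ± 2.48 to 63.8 ± 20.4 CPM in neurons (logFC 2.32, FDR 0.196). Bdnf, the neurotrophin gene, rose from 11.4 ± 2.21 to 43.0 ± 22.7 CPM in glia (logFC 1.92, FDR 0.122). With the replicate block, 4 were up in neurons, Bdnf and Rgs2 besides the former pair, and Arnt2 was down in glia. The heterodimer partners Arnt and Arnt2 were not called in the model of group means, with a logFC of -0.07 and 0.49 in neurons.

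Of 16 other activity-regulated effectors, 5 were up in neurons, 4 were up in glia and none was down, with median logFC of 1.5 and 1.05. The shares of all tested genes that were up were 0.279% in neurons and 0.442% in glia. This list too was written with earlier results of these data known. Inhba, the activin subunit gene, had the largest change in neurons, from 19.8 to 349 CPM (logFC 4.14, FDR 0.00628), and Ptgs2 rose from 46.5 to 357 CPM (logFC 2.94, FDR 0.0335). Vgf (logFC 2.36, FDR 0.0929), Rgs4 (logFC 2.33, FDR 0.111) and Sik1 (logFC 2.16, FDR 0.110) were the other 3 in neurons. In glia Gadd45b (logFC 3.04, FDR 0.137), Inhba (logFC 2.88, FDR 0.0295), Vgf (logFC 2.84, FDR 0.0284) and Ptgs2 (logFC 2.47, FDR 0.0438) were up. With the replicate block, 11 of the 16 were up in neurons, Nrn1, Pcdh8, Scg2, Pcsk1, Dusp1 and Gadd45b besides those named, and 9 in glia, Pcdh8, Syt4, Scg2, Rgs4 and Pcsk1 besides those named.

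**Figure D5:**
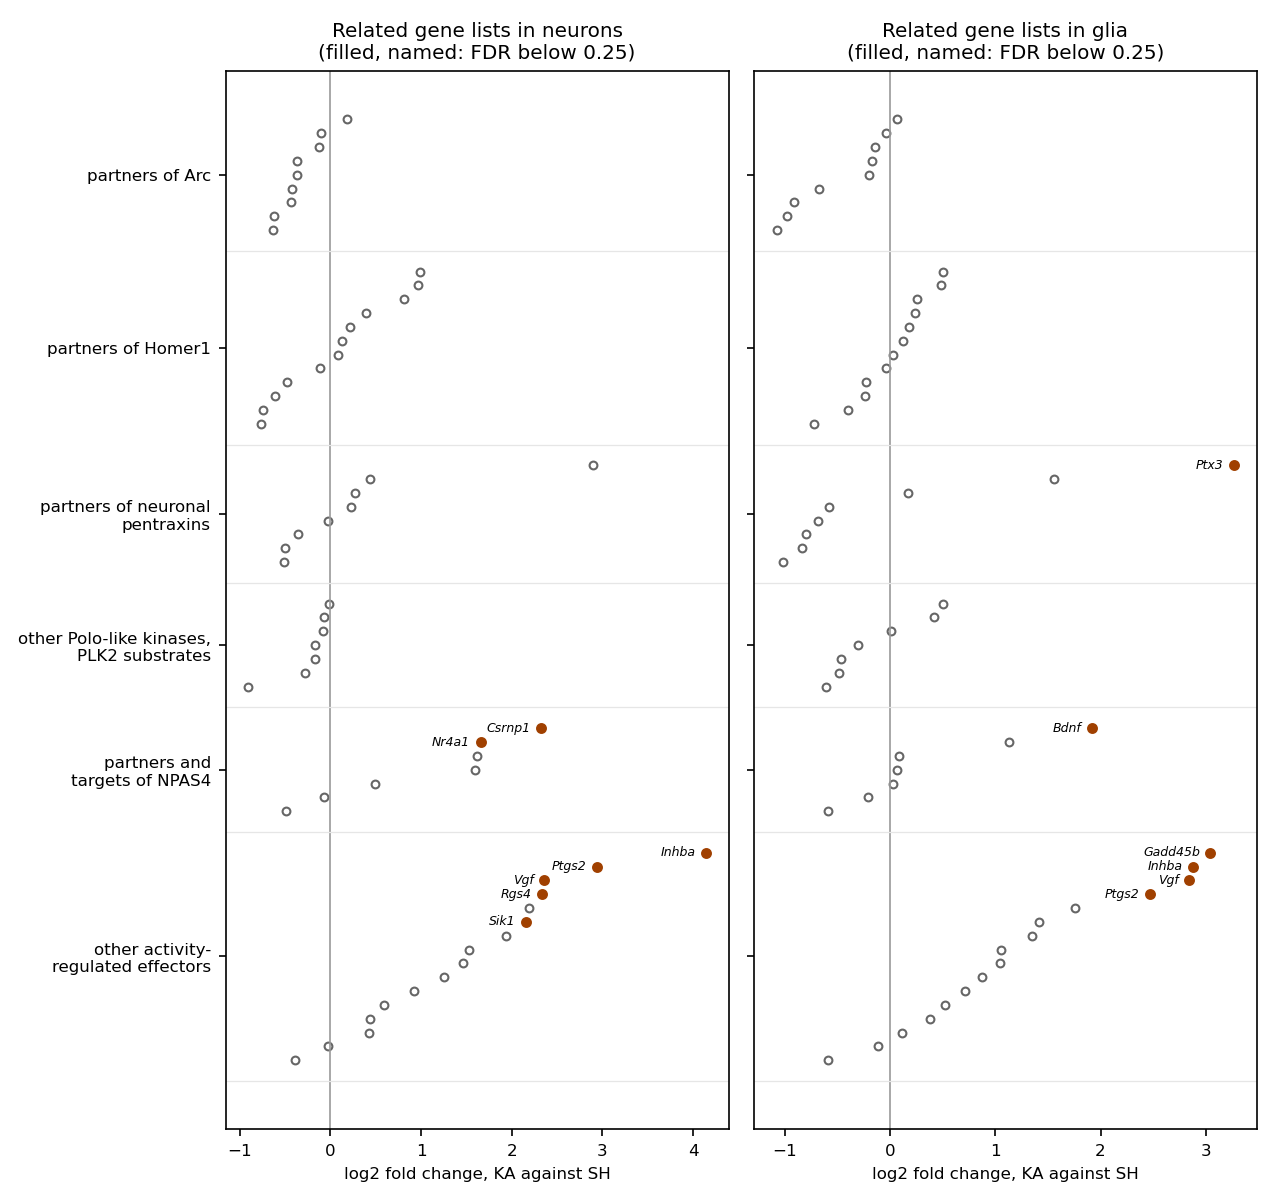
log2 fold change of KA against SH in neurons (left) and glia (right) for every tested gene of the 6 related lists, sorted within each list, filled and named where the FDR was below 0.25. Called genes lie among the pentraxin relatives, the NPAS4 partners and targets and the other activity-regulated effectors, and all of them lie above 0.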

How the data were processed

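Poly(A) mRNAseq of nuclear RNA was analysed in 12 libraries, and RRBS data were not analysed here. The authors trimmed reads with Trim Galore 0.4.3, aligned them to mm10 with Rsubread and deposited counts per gene, made with featureCounts at its defaults on GENCODE M16, which ignore strand and leave out reads on more than 1 gene. Sequencing was on NextSeq (75 bases) or HiSeq (150 bases), not named per library, so a platform effect cannot be told apart. Symbols, positions and exon lengths are from GENCODE M21.

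Genes without a symbol (105) were left out. edgeR 4.0.16 (R 4.3.3, limma 3.58.1) was run with the defaults of filterByExpr (count at least 10, total at least 15), TMM scaling and glmQLFit (legacy=TRUE) on 4 group means over 12 libraries, and Benjamini-Hochberg FDR below 0.25 was the threshold. Standard errors were derived from the logFC and its F value. Replicate numbers were checked as pairs by correlating deviations from group means across genes: 0.399, 0.264 and 0.551 between KA and SH neurons, 0.457, 0.543 and 0.764 between KA and SH glia, and 0.293 to 0.649 between neurons and glia of the same mice. The authors did not describe KA and SH pools as pairs, and this check used the same libraries as the fits. It compared only libraries of the same number, so pairing cannot be told apart from other traits that a number shares, such as pool size. Values with the block are given where they change a call.

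Pools are the replicates. The members and lists were chosen with earlier results of these data known. All 9 members are named, with every called gene of a related list or, where none was called, the one with the smallest p. Genes of these lists called only with the block were named after their values were seen. For likeness, the 3 nearest protein-coding genes with a mean of at least 1 CPM were taken (prior count 2). Results for some neighbouring genes are not reported here. Alternatives were separate fits, the block, DESeq2 1.42.0 size factors and test, library-size scaling, other filters, edgeR 4 quasi-likelihood, all gene IDs, autosomes only, an FDR of 0.05 and left-out libraries. The steps were tested on data simulated with no effect of replicate number or pool, so that test does not cover such effects in the blocked fits. Plots used matplotlib 3.10.9 (Python 3.11.15).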

Additional observations from a re-analysis of the deposited data

Results flagged for a closer look

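The effect of KA on Arc differed between neurons and glia when the pool of mice was a block, by a logFC difference of 1.84 (standard error 0.36, FDR 0.0845, edgeR). Arc rose in KA over SH by 3.88, 8.19 and 5.59 times in neurons and stood at 1.28, 1.38 and 2.20 times SH in glia within the replicate numbers 1, 2 and 3. Without the block the difference was 1.73 (FDR 1) and was not called, and it lay between 1.44 and 2.25 over the 12 fits without 1 library.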

How the results depend on the processing

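In neurons, where 3 members were upregulated, the replicate block gave 5 and the fits without 1 library gave 0 to 4, with 0 without SH neurons replicate 1 and 1 without SH neurons replicate 2. The 1 member downregulated in neurons became 0 without KA neurons replicate 3 and 0 when replicate number 3 was left out of all groups, an alternative chosen after seeing the data (range without 1 library 0 to 1). In glia, where 2 were up and 1 was down, separate fits gave 1 up and 0 down, at least 10 counts in every library 1 up (Npas4 was then not tested), an FDR of 0.05 gave 0 and 0, leaving out both low-input libraries 0 and 0, leaving out replicate number 3 0 and 0, and single libraries left out 1 to 2 up and 0 to 1 down. The block by pool gave 1 member with a different effect between cell types against 0, and 3 members instead of 7 were higher in SH neurons without both low-input libraries. Beyond those given beside the results, fits with the replicate block changed no call of a member.

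For KA against SH, signs turned only for logFC that were not called. In glia, Nptx1 was at 0.033 with separate fits and 0.073 with library-size scaling, which moved the median of all genes by 0.112 in neurons and 0.279 in glia, Nptxr at -0.15 without both low-input libraries and -0.44 without replicate number 3, and Plk3 at -0.14 without replicate number 3. Without 1 library, the logFC lay between -0.088 and 0.77 for Nptx1 in neurons, and in glia between -0.024 and 0.62 for Homer1, -0.999 and 0.47 for Nptx1, -0.77 and 0.46 for Nptxr, -0.044 and 0.90 for Plk2 and -0.18 and 0.44 for Plk3. The difference between cell types lay between -0.23 and 1.25 for Nptx1, -0.15 and 0.82 for Plk2 and -0.91 and 0.22 for Plk5. The causes were not tested. Of the 27 nearest genes, 27 were the same with a prior count of 0.5. The percentage of the neuronal level found in KA glia moved from 15.0 to 20.3% for Arc and from 7.94 to 11.1% for Npas4 with library-size scaling. Depth was lowest for Npas4 in SH glia replicate 1, with 9 counts.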
